A study of Mus musculus with 16 samples.

Results

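Dusp6, Spry2, Spry4, Etv4, Etv5, Egr1, Fos, Jun, Ier3 and Ccn1 are transcriptional targets of the kinase ERK, and they were followed here in mouse embryonic stem cells that were grown with an inhibitor of MEK, the kinase that activates ERK. The 10 genes were found in the deposited gene table by their symbols, which were paired with the Ensembl IDs of the table, and all 10 were present among 56941 genes. The first 5 are called ERK feedback genes below, and the last 5 immediate early genes. The measurement was chromatin-associated RNA sequencing, in which RNA is prepared from the chromatin fraction, so that nascent and retained transcripts weigh more than in whole-cell RNA.

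The 16 libraries came from E14TG2a cells, an established mouse embryonic stem cell line, in 8 groups of 2 libraries. Each group overexpressed 1 construct of a histone demethylase: KDM4A, KDM4B, KDM6A or KDM6B, either with its intrinsically disordered region deleted (del-IDR; the sample titles write del-cIDR) or at full length (FL). KDM4A and KDM4B remove methyl groups from histone H3 at heterochromatin and along gene bodies, and KDM6A and KDM6B remove the methyl mark that Polycomb complexes place. All 8 groups shared the same medium with serum, LIF at 1000 U/ml, the MEK inhibitor PD0325901 at 1 µM and the GSK3 inhibitor CHIR99021 at 3 µM. Every group carried a construct and none was kept without one, so levels are compared between constructs and not with unmodified cells. The labels give neither the residues that were deleted, nor the promoter of the construct, nor whether the cells were a clone or a pool. Whether both libraries of a group were grown as independent cultures is not stated in the labels either, so the spread behind each p-value is that between these libraries and may be technical.

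In embryonic stem cells, FGF4 acts through FGF receptors, RAS, RAF and MEK to activate ERK, which drives cells out of the naive state, and inhibition of MEK holds them in it. ERK target genes fall into different timings. Immediate early genes such as Fos, Jun and Egr1 respond within minutes without new protein synthesis, and they also answer to stress kinases and to cell shape. For Fos and Egr1 the response runs through serum response factor and its ETS partners. Feedback genes follow ERK activity more slowly and damp it: Dusp6 is a phosphatase that removes phosphate from ERK, Spry2 and Spry4 are Sprouty proteins that restrain signalling between the receptor and RAS or RAF, and Etv4 and Etv5 are ETS transcription factors that carry part of the response.

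Gene reads per library ran from 32739117 to 54890756, and between 34227 and 38085 genes had at least 1 read. Markers of embryonic stem cells (10 genes, Pou5f1, Sox2 and Nanog among them) summed to between 2082 and 3131 CPM (read counts scaled to library size) over the 16 libraries. Of the targeted genes, Kdm6a stood at 415 to 441 CPM in the 4 KDM6A libraries and at 95.7 to 156 CPM in the other 12 libraries. Kdm4a stood at 205 to 300.3 against 165 to 272 CPM, Kdm4b at 85.4 to 103 against 74.9 to 103 CPM, and Kdm6b at 78.0 to 96.3 against 69.1 to 81.4 CPM, so for these 3 the own and the other libraries overlapped. Both KDM6B groups and the IDR-deleted KDM4A group, 6 libraries in all, stood apart from the other 10 on the first axis of a multidimensional scaling plot, at -1.71 to -1.56 against 0.07 to 1.90. Those 6 libraries also had more mitochondrial reads, at 0.357 to 0.691% against 0.170 to 0.265% of gene reads. They held fewer reads on repeat copies, at 0.501 to 0.620 against 0.804 to 0.954 per gene read, and more reads on the ERCC control RNAs, at 1.06 to 1.55% against 0.582 to 0.813%. These measures moved with the immediate early genes Fos, Jun, Ier3 and Ccn1 described below. Egr1 followed them only in part, with a mean of 1.05 CPM in full-length KDM6B against 1.32 CPM in IDR-deleted KDM4B. The part of these measures in the results below was not tested.

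**Figure D1:**
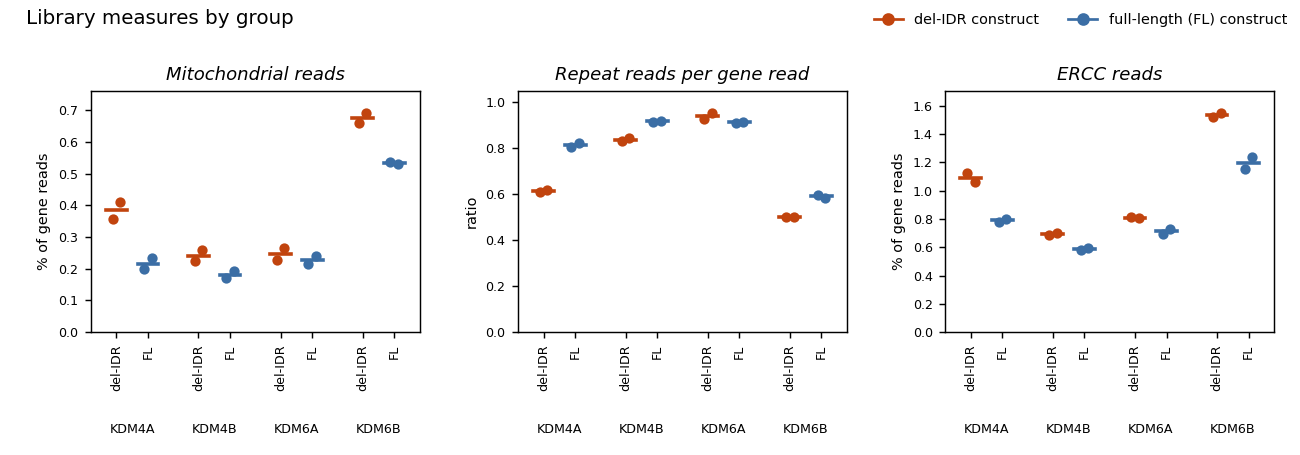
Mitochondrial reads (% of gene reads), repeat reads per gene read (ratio) and ERCC reads (% of gene reads) in each of the 16 libraries, by construct; points are libraries, bars the mean of 2. Both KDM6B groups and IDR-deleted KDM4A lie above 0.357% in the mitochondrial panel and at or below 0.620 in the repeat panel, apart from the other 5 groups.

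The promoter sequences of Fos, Jun, Ier3 and Ccn1 are shown because these immediate early genes rose together in the KDM4A and KDM4B comparisons and a full upstream window was given for each. Each run is the 250 bases before the start site in the RefSeq table (build GRCm38.p6), read 5′ to 3′ on the gene's strand, with matches to the searched motifs in capitals. The windows are Fos at chr12:85473640-85473889 (+), Jun at chr4:95052223-95052472 (-), Ier3 at chr17:35821463-35821712 (+) and Ccn1 at chr3:145649986-145650235 (-).
Fos: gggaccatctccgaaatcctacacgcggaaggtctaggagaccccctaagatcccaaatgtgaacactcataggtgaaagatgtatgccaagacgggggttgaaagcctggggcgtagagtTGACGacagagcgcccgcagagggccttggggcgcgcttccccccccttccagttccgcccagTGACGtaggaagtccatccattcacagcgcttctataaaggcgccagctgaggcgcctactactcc
Jun: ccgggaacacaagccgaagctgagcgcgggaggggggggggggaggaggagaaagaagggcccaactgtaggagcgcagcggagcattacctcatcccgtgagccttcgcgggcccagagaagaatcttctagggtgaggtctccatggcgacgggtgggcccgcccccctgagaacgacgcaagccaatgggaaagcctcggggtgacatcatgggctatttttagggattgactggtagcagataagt
Ier3: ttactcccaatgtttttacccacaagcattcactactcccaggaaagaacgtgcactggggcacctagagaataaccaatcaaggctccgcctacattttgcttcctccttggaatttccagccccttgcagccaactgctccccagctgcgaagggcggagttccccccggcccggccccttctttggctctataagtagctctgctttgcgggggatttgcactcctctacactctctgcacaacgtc
Ccn1: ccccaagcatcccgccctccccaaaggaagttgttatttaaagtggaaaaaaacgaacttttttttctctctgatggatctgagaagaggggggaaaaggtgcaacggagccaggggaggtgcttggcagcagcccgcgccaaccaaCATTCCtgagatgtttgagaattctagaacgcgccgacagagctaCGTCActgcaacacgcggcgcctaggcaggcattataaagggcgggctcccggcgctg

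The search covered the AP-1 site (TGANTCA), the core word of the cAMP response element (TGACG), an ETS site (CCGGAAG), a TEAD site (GGAATG) and the CArG box of serum response factor, on both strands; none of these words contains another. Windows were given for 7 of the 10 genes, 8 windows in all, and matches lay in those of Fos and Ccn1. The Fos window held TGACG at bases -129 to -125 and -66 to -62 from the start. In the Ccn1 window TGACG lay on the opposite strand at -58 to -54 and the TEAD word on the opposite strand at -103 to -98. Over all 32851 windows of that length, 17.8% held TGACG, 12.6% the TEAD word, 6.91% the ETS word, 6.75% the AP-1 word and 1.47% a CArG box. A match is a run of letters and not a measured site.

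Compared per length, as CPM per kilobase of exon (RPKM), the 10 genes differed widely in level. Etv5 had a mean of 28.9 RPKM over the 16 libraries and Ccn1 23.8, followed by Spry2 with 6.23, Jun with 5.62, Etv4 with 4.69, Fos with 3.19, Ier3 with 2.86 and Dusp6 with 2.47. Egr1 and Spry4 were near the bottom with 0.295 and 0.277 RPKM, on 18 to 101 and 28 to 79 reads per library, so small differences in these were not detectable at this depth. All 10 passed the filter on low counts. Every one of the 10 differed among the 8 groups (edgeR quasi-likelihood F test, Benjamini-Hochberg adjusted p from 1.77e-31 for Ccn1 to 0.0401 for Spry4), beside 75.8% of all 31057 genes tested. Spry4 lost this call in 10 of the 16 fits that each left out 1 library (adjusted p from 0.0531 to 0.131), namely without IDR-deleted KDM4A replicate 1, full-length KDM4A replicate 1, either full-length KDM4B library, IDR-deleted KDM6B replicate 2, either full-length KDM6B library, either IDR-deleted KDM6A library or full-length KDM6A replicate 2. With the 6 libraries that stood apart left out, 8 of 10 differed among the 5 remaining groups, all but Egr1 and Spry4, beside 51.6% of genes.

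The immediate early genes spread further between groups than the feedback genes. The highest group mean was 7.55 times the lowest for Ier3, 6.92 times for Fos, 5.44 times for Ccn1, 4.14 times for Egr1 and 3.02 times for Jun. Among the feedback genes the same ratio was 2.47 for Etv4, 1.98 for Dusp6, 1.95 for Spry4, 1.72 for Spry2 and 1.40 for Etv5.

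Ccn1, a secreted matricellular protein and a classical target of YAP and of serum response factor, gave the clearest order of groups. Its mean was 103 CPM with full-length KDM6B, 76.5 with IDR-deleted KDM6B, 64.7 with IDR-deleted KDM4A, 45.3 with IDR-deleted KDM4B, 28.5 with IDR-deleted KDM6A, 24.5 with full-length KDM6A, 22.9 with full-length KDM4A and 19.01 with full-length KDM4B. No 2 neighbours in that order overlapped. Fos ran from 15.4 CPM with IDR-deleted KDM4A through 12.6 with full-length and 11.6 with IDR-deleted KDM6B, 5.81 with IDR-deleted KDM4B, 4.68 with full-length KDM6A, 4.45 with full-length KDM4A and 3.15 with IDR-deleted KDM6A to 2.23 with full-length KDM4B. In that order only the full-length KDM6A and KDM4A libraries overlapped. Jun had 30.5 CPM with IDR-deleted KDM4A, 28.9 with full-length and 26.2 with IDR-deleted KDM6B, 14.2 with IDR-deleted KDM4B and between 10.1 and 11.8 in the other 4 groups. Its IDR-deleted KDM4A and full-length KDM6B libraries overlapped. For Ier3 the order began with full-length KDM6B at 6.97 CPM, IDR-deleted KDM6B at 5.52 and IDR-deleted KDM4A at 4.79, with overlap between the second and the third. The same 3 groups, which are the 6 libraries that stood apart, therefore held the 3 highest means of Fos, Jun, Ier3 and Ccn1, while full-length KDM4B held the lowest mean of Egr1, Fos, Jun and Ccn1.

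All 5 immediate early genes rose with IDR-deleted relative to full-length KDM4A, and all 5 rose with IDR-deleted relative to full-length KDM4B. Among all genes tested, 24.6% were called higher in the KDM4A comparison and 18.6% in the KDM4B comparison at an adjusted p under 0.05. The median log2 fold change of the 5 was 1.50 for KDM4A and 1.05 for KDM4B, against -0.05 and 0.01 over all genes. With KDM6A, 1 of the 5 rose and 2 fell, and with KDM6B 1 rose and 1 fell; 8.30% and 9.89% of all genes were called higher in these comparisons, and 8.65% and 10.7% lower.

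Fos (ENSMUSG00000021250, chromosome 12, GRCm39 positions 85520664 to 85524047, forward strand) encodes a subunit of the transcription factor AP-1. Fos had 15.4 and 15.4 CPM in the IDR-deleted KDM4A libraries, against 4.26 and 4.63 CPM in the full-length KDM4A libraries. It had 5.59 and 6.04 CPM with IDR-deleted KDM4B, against 1.90 and 2.55 CPM with full-length KDM4B. Both deletion groups lay above their full-length groups with no overlap. The log2 fold change was 1.79 ± 0.13 (SE) for KDM4A (edgeR adjusted p = 1.40e-14) and 1.39 ± 0.15 for KDM4B (edgeR adjusted p = 6.00e-10), that is 3.46-fold and 2.62-fold higher. With KDM6A the direction was the opposite, at 3.13 and 3.17 CPM with the deletion, against 4.35 and 5.00 CPM at full length, again without overlap. The log2 fold change there was -0.57 ± 0.14 (edgeR adjusted p = 0.00354); without full-length KDM6A replicate 2 it was -0.47 and the adjusted p was 0.0750. In the KDM6B libraries Fos was high in both forms, at 11.9 and 11.4 CPM with the deletion and 12.2 and 13.02 CPM at full length, and the log2 fold change of -0.12 ± 0.12 did not pass (edgeR adjusted p = 0.552).

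Jun (ENSMUSG00000052684, chromosome 4, GRCm39 positions 94937271 to 94940459, reverse strand) is the partner of Fos in AP-1. It had 32.9 and 28.0 CPM with IDR-deleted KDM4A, against 10.7 and 10.8 CPM with full-length KDM4A. With IDR-deleted KDM4B it had 14.5 and 13.9 CPM, against 10.5 and 9.68 CPM with full-length KDM4B. The rise was thus 2.83-fold for KDM4A (log2 fold change 1.50 ± 0.10, edgeR adjusted p = 2.76e-16) and 1.41-fold for KDM4B (0.49 ± 0.10, edgeR adjusted p = 8.55e-05), with the groups apart in both. KDM6A gave 11.8 and 10.0 CPM with the deletion, against 12.4 and 11.1 CPM at full length, which overlapped, and KDM6B 25.9 and 26.5 CPM with the deletion, against 28.7 and 29.2 CPM at full length. Neither of these passed (edgeR adjusted p = 0.505 and 0.308). The Jun gene overlaps its antisense gene Junos and the counting did not use strand, so reads on any exon positions they share cannot be told apart.

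Ccn1 (ENSMUSG00000028195) lies on chromosome 3, GRCm39 positions 145352731 to 145355736, on the reverse strand. It had 65.1 and 64.2 CPM with IDR-deleted KDM4A, against 23.4 and 22.5 CPM with full-length KDM4A. It had 42.7 and 47.8 CPM with IDR-deleted KDM4B, against 19.5 and 18.5 CPM with full-length KDM4B. These are rises of 2.82-fold (log2 fold change 1.50 ± 0.06, edgeR adjusted p = 9.45e-22) and 2.38-fold (1.25 ± 0.06, edgeR adjusted p = 8.98e-19). With KDM6A it had 28.2 and 28.8 CPM with the deletion, against 25.0 and 23.9 CPM at full length, a log2 fold change of 0.22 ± 0.06 (edgeR adjusted p = 0.0118). That call was lost without IDR-deleted KDM6A replicate 2 (adjusted p = 0.0716), without full-length KDM6A replicate 2 (adjusted p = 0.134) and in a fit of the 4 KDM6A libraries alone (adjusted p = 0.0697), and scaling to the ERCC control RNAs gave 0.00 (adjusted p = 0.994). KDM6B showed the reverse direction, with 78.4 and 74.6 CPM with the deletion, against 103 and 104 CPM at full length (-0.44 ± 0.06, edgeR adjusted p = 5.27e-07), and the libraries did not overlap.

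Ier3 (ENSMUSG00000003541, chromosome 17, GRCm39 positions 36132576 to 36133815, forward strand) is a regulator of survival that is induced early by growth factors and stress. It had 4.13 and 5.44 CPM with IDR-deleted KDM4A, against 2.58 and 2.95 CPM with full-length KDM4A. With KDM4B it had 2.32 and 2.25 CPM with the deletion, against 1.27 and 0.920 CPM at full length. Both pairs of groups were apart, and the log2 fold changes were 0.78 ± 0.20 (edgeR adjusted p = 0.00114) and 1.05 ± 0.23 (edgeR adjusted p = 0.000326). In KDM6A libraries it was lower, at 0.849 and 0.998 CPM with the deletion, against 1.78 and 1.31 CPM at full length (-0.75 ± 0.24, edgeR adjusted p = 0.0267), but 3 of the 4 fits that each left out 1 of these libraries lost the call: without IDR-deleted replicate 1 (adjusted p = 0.176), IDR-deleted replicate 2 (0.0565) or full-length replicate 1 (0.370). With KDM6B, 4.98 and 6.06 CPM with the deletion and 7.37 and 6.57 CPM at full length did not differ by the test (-0.34 ± 0.18, edgeR adjusted p = 0.213).

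Egr1 is a zinc finger transcription factor and the usual readout of ERK in acute stimulation, and it stood low here. Egr1 (ENSMUSG00000038418, chromosome 18) lay on few reads in every library. Its level was 2.65 and 2.94 CPM with IDR-deleted KDM4A, against 1.09 and 1.38 CPM with full-length KDM4A. It was 1.12 and 1.53 CPM with IDR-deleted KDM4B, against 0.879 and 0.473 CPM with full-length KDM4B, and 1.83 and 1.98 CPM with IDR-deleted KDM6B, against 0.997 and 1.11 CPM with full-length KDM6B. The 3 log2 fold changes were 1.17 ± 0.30, 0.96 ± 0.34 and 0.86 ± 0.31 (edgeR adjusted p = 0.00130, 0.0228 and 0.0426), and in each the deletion group lay above its full-length group. The KDM4B call was lost without IDR-deleted replicate 2 (adjusted p = 0.209) or full-length replicate 2 (0.280), and the KDM6B call without any 1 of its 4 libraries (0.102 to 0.209) and in DESeq2 (0.0566). With KDM6A the libraries overlapped, at 0.536 and 0.998 CPM against 0.902 and 0.742 CPM (edgeR adjusted p = 0.916).

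**Figure D2:**
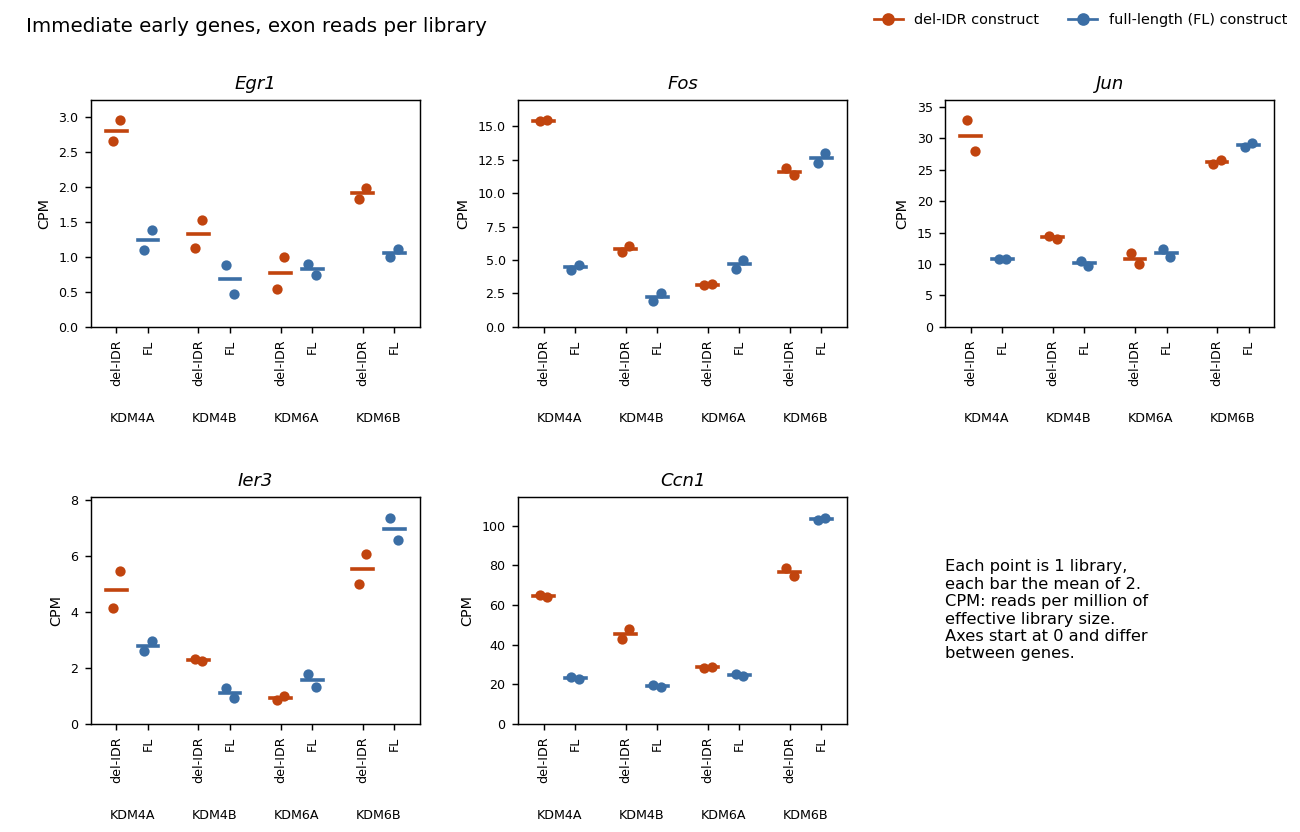
CPM of the 5 immediate early genes in each library, IDR-deleted beside full-length for each demethylase, with each axis starting at 0. Points of the IDR-deleted KDM4A and KDM4B groups lie above those of their full-length groups in every panel, and both KDM6B groups are high for Fos, Jun, Ier3 and Ccn1.

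The trophectoderm markers (8 genes, Gata2, Gata3 and Krt8 among them) moved beside the immediate early genes: their summed level was 42.2 to 43.2 CPM with IDR-deleted KDM4A against 20.6 to 21.3 at full length, 28.4 to 29.3 CPM with IDR-deleted KDM4B against 16.8 to 17.2, 20.5 to 21.8 CPM with IDR-deleted KDM6A against 18.99 to 19.8, and 45.2 to 47.5 CPM with IDR-deleted KDM6B against 47.9 to 48.5. Of 7 tested, 6 were called higher with IDR-deleted KDM4A and 5 with IDR-deleted KDM4B, beside 24.6% and 18.6% of all genes, and Cdx2 had at most 10 reads in each library. Of the 8 primitive endoderm markers, Gata6 and Sox17 among them, 6 and 5 were called higher in these comparisons, beside the same shares. The summed level of those 8 was 463 to 470.3 CPM with IDR-deleted KDM4A against 418 to 439.6 CPM, 469 to 494 CPM with IDR-deleted KDM4B against 421 to 430 CPM, 461 to 483 CPM with IDR-deleted KDM6A against 415 to 419 CPM, and 387 to 395 CPM with IDR-deleted KDM6B against 623 to 637 CPM. Of the 10 fibroblast markers 5 were tested, with 2 and 1 called higher, summing to 30.4 to 32.2 CPM with IDR-deleted KDM4A against 15.2 to 17.3 CPM and 15.9 to 17.4 CPM with IDR-deleted KDM4B against 10.5 to 11.1 CPM. They summed to 9.06 to 10.01 CPM with IDR-deleted KDM6A against 15.7 to 16.3 CPM and to 25.2 to 25.7 CPM with IDR-deleted KDM6B against 23.1 to 23.3 CPM, and Fap, Postn, Dcn and Lum had at most 10 reads in each library. Of the 10 embryonic stem cell markers, 4 were called higher and 5 lower with IDR-deleted KDM4A, and 3 and 6 with IDR-deleted KDM4B. Lower calls made up 25.9% and 17.6% of all genes. Their sum was 2670 to 2735 against 2630 to 2734.5 CPM for KDM4A and 2082 to 2164 against 2420 to 2516 CPM for KDM4B. For KDM6A it was 2399 to 2530 against 2314 to 2393 CPM, and for KDM6B 3125 to 3131 against 2989 to 3032 CPM. The part of these cell types in the immediate early genes was not tested. In bulk RNA, more cells of a type and more RNA per cell cannot be told apart.

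The feedback genes did not follow the immediate early genes. In the KDM4A and the KDM4B comparison 2 of 5 fell and none rose, in the KDM6A comparison 1 rose and none fell, and in the KDM6B comparison 2 fell and none rose. Lower calls made up 25.9%, 17.6%, 8.65% and 10.7% of all genes tested for KDM4A, KDM4B, KDM6A and KDM6B. Higher calls made up 24.6%, 18.6%, 8.30% and 9.89%. The medians of the 5 log2 fold changes were -0.20, -0.30, 0.12 and -0.22 in the same sequence. Under ERCC scaling 4 of 5 were called lower for KDM4A (Dusp6 -0.86, Spry2 -0.90, Etv4 -0.59 and Etv5 -0.96), 2 for KDM4B, 1 for KDM6A and 4 for KDM6B, and none higher. On that scale 57.2%, 27.6%, 23% and 42.8% of all genes were called lower and 4.71%, 9.26%, 1.43% and 2.13% higher.

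Etv5 (ENSMUSG00000013089, chromosome 16, GRCm39 positions 22200059 to 22258469, reverse strand) was the highest of the 10 per length and the most precisely measured feedback gene. It had 102 and 97.5 CPM with IDR-deleted KDM4A, against 126 and 122 CPM with full-length KDM4A, and 107 and 104 CPM with IDR-deleted KDM4B, against 141 and 139 CPM with full-length KDM4B. It fell in both, by 0.31 ± 0.05 (edgeR adjusted p = 3.37e-07) and 0.41 ± 0.05 (edgeR adjusted p = 1.38e-09) on the log2 scale, with no overlap. With IDR-deleted KDM6A it stood higher, at 136 and 127 CPM, against 109 and 108 CPM with full-length KDM6A (0.28 ± 0.05, edgeR adjusted p = 1.35e-05); ERCC scaling left 0.06 (adjusted p = 0.550). With KDM6B, 115 and 120.3 CPM with the deletion lay just under 123 and 121 CPM at full length, and the difference did not pass (edgeR adjusted p = 0.473).

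Spry2 (ENSMUSG00000022114) lies on chromosome 14, GRCm39 positions 106129381 to 106134253, on the reverse strand. It had 11.1 and 11.8 CPM with IDR-deleted KDM4B, against 16.9 and 17.5 CPM with full-length KDM4B, a fall of 0.59 ± 0.10 on the log2 scale (edgeR adjusted p = 1.49e-05). With IDR-deleted KDM4A it had 12.4 and 11.8 CPM, against 14.1 and 14.7 CPM with full-length KDM4A (-0.25 ± 0.11, edgeR adjusted p = 0.0477). Both groups lay below their full-length groups, but the KDM4A call was lost in each of the 4 fits without 1 of its libraries (adjusted p from 0.0668 to 0.229) and in DESeq2 (0.0706). The KDM6A libraries did not overlap, with 9.45 and 10.6 CPM with the deletion, against 11.5 and 11.99 CPM at full length, but did not pass (edgeR adjusted p = 0.154). In the KDM6B libraries, 13.2 and 15.0 CPM with the deletion overlapped 11.9 and 14.3 CPM at full length.

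Etv4 (ENSMUSG00000017724, chromosome 11, GRCm39 positions 101660568 to 101676197, reverse strand), the close relative of Etv5, changed with KDM6B and did not pass for the other 3 demethylases. It had 7.93 and 9.12 CPM with IDR-deleted KDM6B, against 16.98 and 17.4 CPM with full-length KDM6B, which is 2.02-fold lower (log2 fold change -1.01 ± 0.10, edgeR adjusted p = 5.16e-10) and the lowest group mean of this gene. The KDM4B groups were the highest and overlapped, at 21.2 and 19.1 CPM with the deletion and 21.8 and 20.3 CPM at full length. The KDM4A groups were at 10.5 and 10.96 CPM with the deletion and 10.5 and 10.1 CPM at full length, and the KDM6A groups at 14.2 and 15.4 CPM and 13.9 and 13.3 CPM (edgeR adjusted p from 0.464 to 0.655 for these 3).

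Dusp6 (ENSMUSG00000019960, chromosome 10, GRCm39 positions 99099093 to 99103351, forward strand) also fell with the KDM6B deletion, with 7.89 and 7.57 CPM, against 11.6 and 9.95 CPM with full-length KDM6B (-0.48 ± 0.13, edgeR adjusted p = 0.00517). Without IDR-deleted KDM6B replicate 2 the adjusted p was 0.0569, and without full-length KDM6B replicate 1 it was 0.126. With IDR-deleted KDM6A it had 9.47 and 7.85 CPM, against 6.59 and 6.85 CPM with full-length KDM6A, which lay just outside the threshold (0.36 ± 0.13, edgeR adjusted p = 0.0506). It passed under median-ratio scaling (0.0467), with the replicate number as a block (0.0357) and without IDR-deleted KDM6A replicate 2 (0.0268). The KDM4A and KDM4B libraries overlapped, at 6.08 and 4.83 CPM against 5.98 and 6.59 CPM and at 7.86 and 8.49 CPM against 8.06 and 7.97 CPM (edgeR adjusted p = 0.236 and 0.894).

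Spry4 (ENSMUSG00000024427, chromosome 18) ranged from 0.799 to 1.78 CPM over the 16 libraries, and none of its 4 deletion effects passed, with log2 fold changes from -0.30 to 0.44 and edgeR adjusted p from 0.228 to 0.772. Its span also overlaps 2 genes without a symbol on the opposite strand. Whether their exons overlap those of Spry4 was not examined, and without strand, reads on any shared exon positions could not be told apart.

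**Figure D3:**
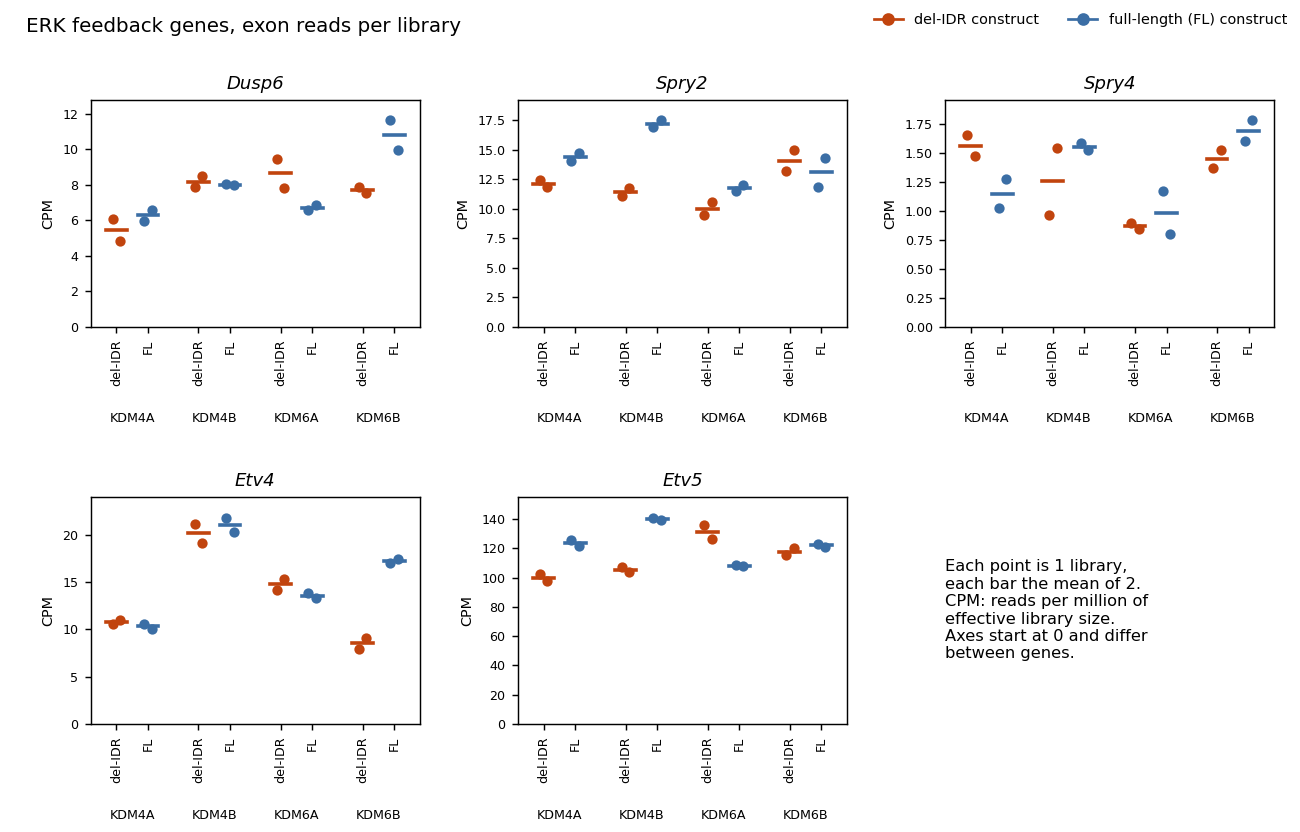
CPM of the 5 ERK feedback genes in each library, laid out as for the immediate early genes. Etv5 lies between 97.5 and 141 CPM throughout, and Etv4 shows its widest gap between IDR-deleted and full-length KDM6B.

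Over the 10 genes together, 7 passed for KDM4A (5 higher, 2 lower), 7 for KDM4B (5 higher, 2 lower), 4 for KDM6A (2 higher, 2 lower) and 4 for KDM6B (1 higher, 3 lower). The shares of all genes called in either direction were 50.5%, 36.2%, 17% and 20.6%. The KDM6A count fell to 2 without full-length KDM6A replicate 2, and the KDM6B count to 2 without IDR-deleted KDM6B replicate 2 or full-length KDM6B replicate 1. The 2 libraries of the deletion group lay entirely above or below the 2 full-length libraries for 8, 7, 7 and 9 of the 10 genes, beside 73.2%, 66.8%, 53.6% and 58.0% of all genes, so these counts were near those shares for KDM4A and KDM4B. The size of the deletion effect differed among the 4 demethylases for 8 of 10 genes (edgeR F test on the 4 effects), beside 56.6% of all genes. The exceptions were Spry4 (adjusted p = 0.354) and Egr1 (adjusted p = 0.0872). Between the KDM4B and KDM6A effects alone, fitted without the 6 libraries that stood apart, 6 of 10 differed, namely Ccn1, Fos, Etv5, Ier3, Jun and Spry2 (edgeR adjusted p from 7.72e-10 to 0.0462), beside 35.6% of genes.

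None of those 6 libraries is in the KDM4B or KDM6A comparison. Leaving them out could change only the filter, the scaling and the estimate of spread there. All 7 KDM4B calls were kept, beside 37.9% of all genes called in that fit. On the log2 scale Fos stood at 1.39, Ccn1 at 1.26, Ier3 at 1.06, Egr1 at 0.96 and Jun at 0.50. The KDM4B groups also lay apart on the first axis of the multidimensional scaling plot, at 0.07 with the deletion against 1.90 at full length. Mitochondrial reads differed between them too, at 0.225 to 0.258% with the deletion against 0.170 to 0.192%. The part of either in the KDM4B result was not tested. The KDM6B comparison lies wholly within those 6 libraries. For KDM4A the deletion group is among them and the full-length group is not, so neither comparison has such a fit. For KDM6A the count stayed at 4, with Dusp6 gained (adjusted p = 0.0439) and Ier3 lost (0.0553), beside 17.2% of all genes called. Scaling to the ERCC control RNAs instead of to the bulk of genes moved the median of all genes by -0.65 for KDM4A, -0.19 for KDM4B, -0.21 for KDM6A and -0.38 for KDM6B on the log2 scale. On that scale Fos, Jun and Ccn1 were still called higher in the KDM4A and KDM4B comparisons, at 1.14, 0.85 and 0.84 and at 1.20, 0.31 and 1.06, while Egr1 and Ier3 lost the KDM4A call (0.52 and 0.13, adjusted p = 0.140 and 0.605) and Egr1 the KDM4B call (0.77, adjusted p = 0.0739). Relative to the shifted median of all genes, the 5 stood at 0.83 to 1.84 for KDM4A and 0.49 to 1.38 for KDM4B. Of the 10 genes, ERCC scaling called 3 higher and 4 lower for KDM4A, beside 4.71% and 57.2% of all genes, and 4 higher and 2 lower for KDM4B, beside 9.26% and 27.6%. For KDM6A it called 4 lower and none higher, beside 23% and 1.43% of all genes, and for KDM6B 8 lower and none higher, beside 42.8% and 2.13%.

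**Figure D4:**
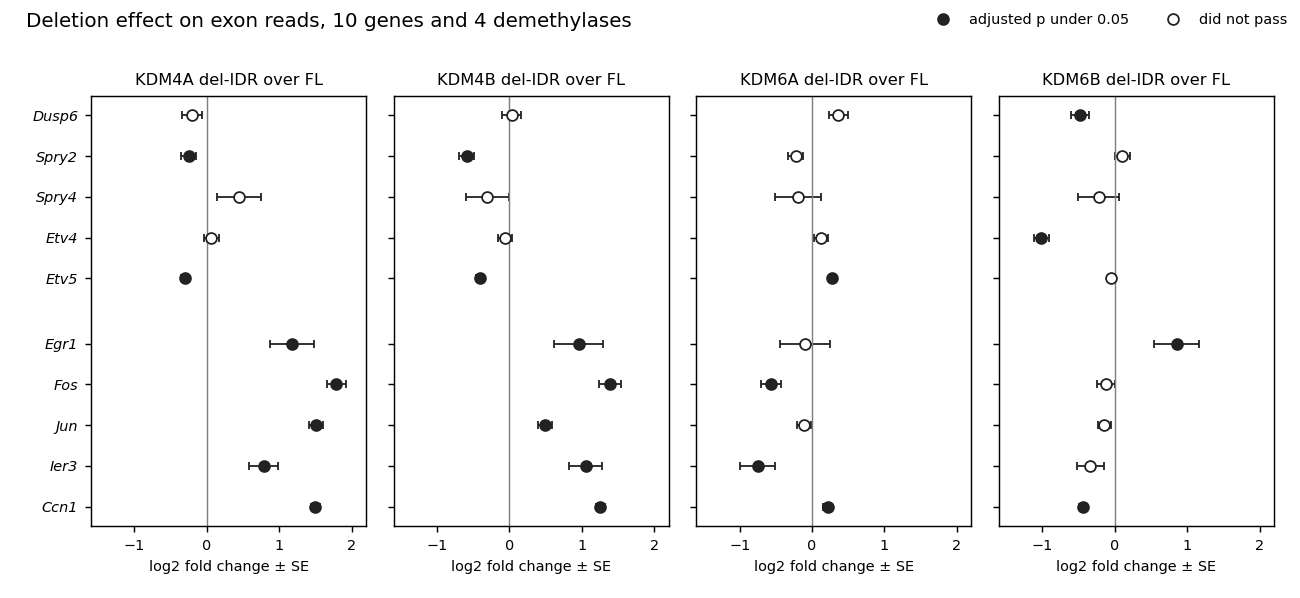
Log2 fold change of IDR-deleted over full-length constructs for the 10 genes, 1 panel per demethylase, with bars for ± 1 SE; filled points passed an adjusted p of 0.05. All 5 immediate early genes lie right of 0 for KDM4A and KDM4B, from 0.49 to 1.79, and Etv4 lies farthest left for KDM6B at -1.01.

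The full-length groups also differed from each other, and these comparisons share libraries with each other and with the deletion comparisons. Relative to the mean of the other 3 full-length groups, full-length KDM6B was higher for 6 of 10 genes and lower for none, beside 57.9% of all genes called (28.7% higher and 29.1% lower). The log2 fold change was 2.23 ± 0.05 for Ccn1, 2.05 ± 0.15 for Ier3, 1.82 ± 0.10 for Fos and 1.41 ± 0.07 for Jun (edgeR adjusted p from 3.27e-32 to 9.82e-15), and 0.63 ± 0.10 for Dusp6 and 0.26 ± 0.08 for Etv4 (edgeR adjusted p = 1.46e-06 and 0.00360). Under ERCC scaling, which moved the median of all genes by -0.93, the 4 immediate early genes were still higher at 0.48 to 1.30. On that scale 5 genes were called lower: Dusp6 and Etv4, which turned to -0.30 and -0.67, and Spry2 (-1.06), Etv5 (-0.95) and Egr1 (-0.69), with 3.20% of all genes called higher and 74.5% lower. Markers of embryonic stem cells stood higher in full-length KDM6B, at 2989 to 3032 against 2314 to 2734.5 CPM in the other full-length groups. Markers of other cell types also stood higher there, with trophectoderm markers at 47.9 to 48.5 against 16.8 to 21.3 CPM. Primitive endoderm markers stood at 623 to 637 against 415 to 439.6 CPM, and fibroblast markers at 23.1 to 23.3 against 10.5 to 17.3 CPM. The part of these marker sets in the immediate early values was not tested.

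Full-length KDM4B had lower Fos (-1.53 ± 0.13), Ier3 (-1.50 ± 0.20), Ccn1 (-1.03 ± 0.05) and Jun (-0.61 ± 0.08) than the mean of the other full-length groups, and higher Etv4 (0.65 ± 0.08), Spry2 (0.40 ± 0.08) and Etv5 (0.25 ± 0.04), with edgeR adjusted p from 1.83e-18 to 0.000120, beside 43.5% of genes called, 21.8% in each direction. Set against full-length KDM4A and KDM6A alone, Fos, Ier3 and Ccn1 were still lower at -1.03, -0.92 and -0.32 and the 3 feedback genes higher at 0.28 to 0.84, while Jun did not pass (-0.15, adjusted p = 0.253) and Dusp6 was gained (0.30, adjusted p = 0.0384). In that fit 27.4% of all genes were called. ERCC scaling, with a shift of 0.62 in the median of all genes, left Jun at 0.01 (adjusted p = 0.920) and called 5 genes higher and 3 lower, beside 63.8% and 3.05% of all genes. The 5 higher were the feedback genes Dusp6 (0.68), Spry2 (1.02), Spry4 (0.94), Etv4 (1.27) and Etv5 (0.87), and the 3 lower Fos (-0.91), Ier3 (-0.88) and Ccn1 (-0.41).

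Full-length KDM4A was lower for 4 genes (Dusp6, Etv4, Jun and Ccn1) and full-length KDM6A for 5 (Spry2, Etv5, Jun, Ier3 and Ccn1), and none was higher in either. Of all genes, 15.3% were called for full-length KDM4A (8.92% higher, 6.36% lower) and 28.3% for full-length KDM6A (13.2% higher, 15.1% lower). Some of these calls rest on the full-length KDM6B group in the mean. They are Dusp6, Jun and Ccn1 for full-length KDM4A and Jun, Ier3 and Ccn1 for full-length KDM6A. With the 6 libraries left out, Etv4 remained lower in full-length KDM4A (-0.71) while Ier3 and Fos were higher (1.09 and 0.47), and Spry2 and Etv5 remained lower in full-length KDM6A (-0.43 and -0.29) while Fos and Ccn1 were higher (0.56 and 0.22). In that fit 17.4% of all genes were called for full-length KDM4A and 17.8% for full-length KDM6A. ERCC scaling, which moved the median of all genes by 0.30 for full-length KDM6A, left 2 of its 5 calls, Ier3 and Ccn1. On that scale 42.9% of all genes were called higher and 2.37% lower. Fewer of the 5 calls were also left without full-length KDM6A replicate 2.

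Repeat copies inside introns gave a further readout of the same genes. Reads on copies that lie inside 1 gene and outside its exons were summed per gene, and 6 of the 10 genes could be tested: Etv5 with 89 copies, Etv4 with 19, Spry4 with 13, Spry2 and Fos with 2 each and Ccn1 with 1. Etv5 carried 130409 such reads over the 16 libraries, Ccn1 3517 and Etv4 3140, while Spry4, Spry2 and Fos had 186, 171 and 143. Dusp6, Jun and Ier3 have no intronic copy with reads and Egr1 had 4 reads. Called higher and lower were 1 and 1 of 6 for KDM4A, 1 and 1 for KDM4B, 1 and 0 for KDM6A, and 0 and 3 for KDM6B, beside 55.7%, 41.5%, 19.4% and 40.7% of all 18200 genes called in either direction. Higher calls made up 18.3%, 17.1%, 11.1% and 5.21% of those genes, and lower calls 37.4%, 24.4%, 8.27% and 35.5%. Etv4 was lower for KDM4A just outside the threshold (-0.42, edgeR adjusted p = 0.0508), beside a median of -0.23 over all genes. With the replicate number as a block it passed (edgeR adjusted p = 0.0477). Scaled on the intronic sums it did not pass (-0.25, edgeR adjusted p = 0.275). Without full-length KDM4A replicate 2 its log2 fold change was -0.59.

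Etv5 intronic reads had 107 and 102 CPM with IDR-deleted KDM4A, against 209 and 211 CPM with full-length KDM4A. They had 193 and 182 CPM with IDR-deleted KDM4B, against 325 and 312 CPM with full-length KDM4B, and 79.0 and 77.6 CPM with IDR-deleted KDM6B, against 118 and 118 CPM with full-length KDM6B. All 3 deletion groups lay below their full-length groups, by 1.00 ± 0.04, 0.77 ± 0.04 and 0.59 ± 0.04 on the log2 scale (edgeR adjusted p = 8.83e-28, 1.04e-22 and 1.09e-17). With IDR-deleted KDM6A they were higher, at 271 and 265 CPM, against 216 and 205 CPM with full-length KDM6A (0.35 ± 0.04, edgeR adjusted p = 1.27e-09). The exon log2 fold changes of Etv5 for KDM4A, KDM4B, KDM6A and KDM6B were -0.31, -0.41, 0.28 and -0.05; the difference between the 2 readouts was not tested. The median intronic log2 fold change over all genes was -0.23, -0.05, 0.02 and -0.23, and with scaling on the intronic sums themselves Etv5 stood at -0.83, -0.72, 0.33 and -0.37, all called.

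In Etv5 there were 0.953 exon reads per intronic repeat read with IDR-deleted KDM4A against 0.588 with full-length KDM4A, 0.563 against 0.441 for KDM4B, 0.490 against 0.516 for KDM6A, and 1.51 against 1.04 for KDM6B (means of 2 libraries). The repeat reads of whole libraries moved likewise, with 0.609 to 0.620 repeat reads per gene read with IDR-deleted against 0.804 to 0.822 with full-length KDM4A, 0.831 to 0.845 against 0.914 to 0.921 for KDM4B, 0.927 to 0.954 against 0.909 to 0.916 for KDM6A and 0.501 to 0.502 against 0.586 to 0.597 for KDM6B. Their part in the Etv5 result was not tested.

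Etv4 intronic reads had 2.26 and 1.92 CPM with IDR-deleted KDM6B, against 4.27 and 4.58 CPM with full-length KDM6B, and fell by 1.08 ± 0.17 on the log2 scale (edgeR adjusted p = 5.27e-07), beside -1.01 in exons. Ccn1 intronic reads had 7.89 and 6.30 CPM with IDR-deleted KDM4A, against 2.44 and 2.33 CPM with full-length KDM4A, and 5.56 and 5.68 CPM with IDR-deleted KDM4B, against 3.00 and 2.58 CPM with full-length KDM4B. They rose by 1.58 ± 0.18 and 1.01 ± 0.18 on the log2 scale (edgeR adjusted p = 5.80e-11 and 4.14e-06) with the groups apart. They fell by 0.47 ± 0.15 for KDM6B (edgeR adjusted p = 0.0102), a call lost when scaled on the intronic sums (-0.24, adjusted p = 0.230), without IDR-deleted KDM6B replicate 2 (0.334) and without full-length KDM6B replicate 2 (0.0739). The Ccn1 value rests on 1 simple repeat of 36 bases that lies 36 bases from an exon, so reads on it can reach that exon. Spry2, Spry4 and Fos had 1 to 23 intronic reads per library and none of their effects passed.

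**Figure D5:**
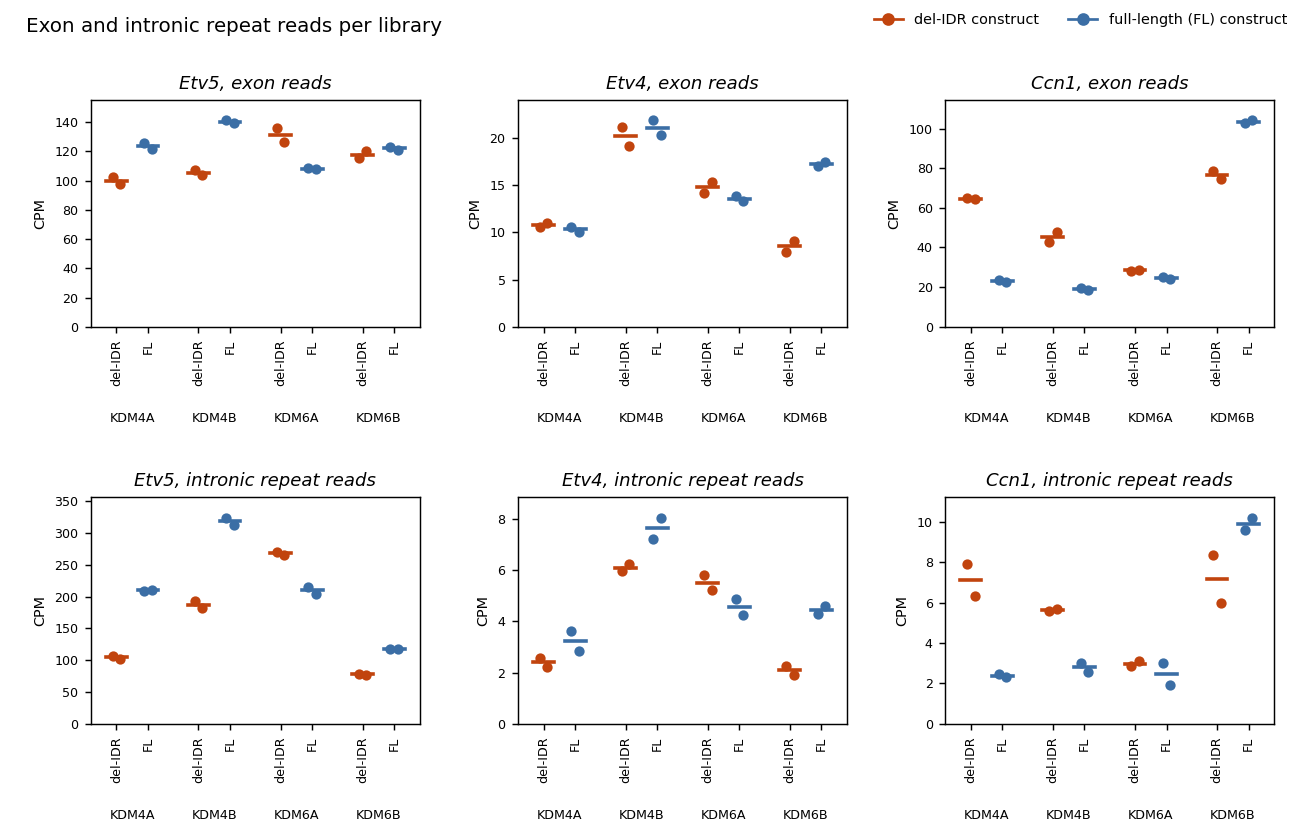
Exon reads (upper row) and intronic repeat reads (lower row) of Etv5, Etv4 and Ccn1 in CPM for each library; points are libraries, bars the mean of 2. Etv5 intronic reads span 77.6 to 325 CPM while its exon reads span 97.5 to 141 CPM.

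Lists of other genes around the pathway were counted in the same fit. Of all genes tested, 24.6% were called higher and 25.9% lower for KDM4A, 18.6% and 17.6% for KDM4B, 8.30% and 8.65% for KDM6A, and 9.89% and 10.7% for KDM6B, with median log2 fold changes of -0.05, 0.01, 0.00 and 0.00. Of 33 other immediate early genes tested, 23 rose and 1 fell with IDR-deleted KDM4A, with a median log2 fold change of 0.63; for KDM4B 11 rose and 8 fell, for KDM6A 3 rose and 8 fell, and for KDM6B 6 rose and 9 fell, with medians of 0.10, -0.16 and -0.02. The share called higher was 69.7% for KDM4A, 33.3% for KDM4B, 9.09% for KDM6A, near that of all genes, and 18.2% for KDM6B; the share called lower was 3.03%, 24.2%, 24.2% and 27.3%. Gadd45b, a stress-induced regulator of growth arrest, rose 2.09 ± 0.10 on the log2 scale with IDR-deleted KDM4A (36.3 and 32.2 CPM, against 7.68 and 8.35 CPM; edgeR adjusted p = 1.47e-19). Plk2, a polo-like kinase, rose with KDM4A and KDM4B (0.96 and 0.69) and fell with KDM6B (-0.47), with edgeR adjusted p of 7.70e-20, 3.61e-15 and 4.69e-10. Btg2, an antiproliferative gene, rose with KDM4B (0.78, edgeR adjusted p = 9.93e-13). Among the Krüppel-like factors, Klf6 and Klf10 fell with KDM6A (-0.50 and -0.28, edgeR adjusted p = 2.55e-06 and 0.00101) and Klf10 rose with KDM6B (0.59, edgeR adjusted p = 9.40e-10).

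Of 24 other ERK feedback and target genes tested, 12 rose and 7 fell for KDM4A, 5 and 7 for KDM4B, 8 and 2 for KDM6A, and 2 and 5 for KDM6B, with medians of 0.26, 0.10, 0.05 and 0.02. The shares called lower for KDM4A (29.2%) and KDM6A (8.33%) and called higher for KDM4B (20.8%) and KDM6B (8.33%) were near those of all genes, while 50% were called higher for KDM4A and 33.3% for KDM6A, and 29.2% lower for KDM4B and 20.8% for KDM6B. Etv1, the third member of the family of Etv4 and Etv5, had 9.61 and 9.38 CPM with IDR-deleted KDM4A, against 34.4 and 35.8 CPM with full-length KDM4A (log2 fold change -1.88 ± 0.08, edgeR adjusted p = 1.75e-21). With KDM4B it had 19.6 and 19.9 CPM with the deletion, against 60.4 and 62.3 CPM at full length (-1.63 ± 0.07, edgeR adjusted p = 5.95e-20). Hmga2, a chromatin architectural protein, fell by 1.42 with KDM4A and rose by 0.72 with KDM6A (edgeR adjusted p = 3.37e-19 and 3.53e-10), and the receptor kinase Epha2 fell by 0.98 with KDM4B (edgeR adjusted p = 3.28e-18). Bhlhe40, a transcriptional repressor, fell by 1.22 with KDM6A (edgeR adjusted p = 1.41e-10), and the RAS inhibitors Rasa2 and Spred1 fell by 0.40 and 0.33 with KDM6B (edgeR adjusted p = 6.77e-06 and 2.56e-05).

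In the FGF, RAS and ERK cascade itself, 20 of 37 tested genes rose and 10 fell for KDM4A, 11 and 11 for KDM4B, 5 and 8 for KDM6A, and 4 and 4 for KDM6B, with medians of 0.21, -0.01, 0.00 and -0.01. For KDM6B the 10.8% called in each direction, and for KDM4A the 27% called lower, were near the shares of all genes; 54.1% were called higher for KDM4A, 29.7% in each direction for KDM4B, and 13.5% higher and 21.6% lower for KDM6A. Frs2, the adaptor that couples FGF receptors to RAS, had 176 and 185 CPM with IDR-deleted KDM4A, against 74.5 and 82.2 CPM with full-length KDM4A (1.20 ± 0.05, edgeR adjusted p = 1.33e-21), and 92.0 and 92.3 CPM with IDR-deleted KDM4B, against 62.4 and 61.5 CPM with full-length KDM4B (0.57 ± 0.05, edgeR adjusted p = 7.50e-12). The RAS activator Sos1 rose with KDM4A (0.68, edgeR adjusted p = 1.80e-15). The ERK-dependent kinase Rps6ka2 fell with KDM6A (-0.31, edgeR adjusted p = 5.52e-06). The receptor Fgfr2 and the ETS factor Ets2 fell with KDM6B (-0.59 and -0.36, edgeR adjusted p = 3.85e-07 and 0.000354).

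Of 24 targets of YAP and of serum response factor tested, 16 rose and 2 fell for KDM4A, 9 and 4 for KDM4B, 7 and 4 for KDM6A, and 6 and 5 for KDM6B, with medians of 0.43, 0.08, 0.09 and 0.06. The shares called higher were 66.7%, 37.5%, 29.2% and 25.0%, above those of all genes. The shares called lower were 8.33%, 16.7%, 16.7% and 20.8%. These were below the share of all genes for KDM4A, near it for KDM4B, and above it for KDM6A and KDM6B. Tpm1 and Vcl, which encode tropomyosin and vinculin of the actin cytoskeleton, rose with KDM4A (1.02 and 0.58, edgeR adjusted p = 1.00e-20 and 9.43e-15). Ccn2, a relative of Ccn1, rose with KDM4B (0.63, edgeR adjusted p = 1.38e-08), while the actin crosslinker Flna fell with KDM4B (-0.64, edgeR adjusted p = 6.91e-19) and rose with KDM6A (0.29, edgeR adjusted p = 5.31e-09). The adaptor Ajuba rose with KDM6A (0.39, edgeR adjusted p = 3.68e-06), Actb rose with KDM6B (0.32, edgeR adjusted p = 3.34e-09) and Thbs1, a secreted glycoprotein, fell with KDM6B (-1.32, edgeR adjusted p = 8.91e-07).

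By likeness of pattern over the 8 group means, among 9466 named genes with a mean of at least 10 CPM, Myo18a, Tfam and Grhl3 lay closest to the mean pattern of the immediate early genes, each with a Pearson correlation of 0.997. E2f7, B4galnt4 and Cbarp lay closest to that of the feedback genes, with correlations of 0.901, 0.899 and 0.892. These are descriptions over 8 points that share libraries and scaling factors. The sizes differed. From the lowest to the highest group, the mean centred log2 level of the immediate early genes ran from -1.05 to 1.00. That of Myo18a ran from -0.34 to 0.36, of Tfam from -0.37 to 0.35 and of Grhl3 from -0.59 to 0.69. The feedback mean ran from -0.18 to 0.33, E2f7 from -0.16 to 0.16, B4galnt4 from -0.08 to 0.11 and Cbarp from -0.11 to 0.16.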

How the data were processed

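Chromatin-associated RNA of 16 libraries was measured, and the authors deposited raw read counts per gene and per repeat copy. Reads were counted with featureCounts 2.0.3 on exons without strand, with a mapping quality of at least 30, each read of a pair counted and multi-mapping reads not counted, per the file headers. Build GRCm39, HISAT2, SAMtools, Picard and MACS2 are named in the submitters' processing notes; their versions are not given in the sources used here. Reads on close copies of a gene are lost by such counting, and fragments weigh up to 2 reads.

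Gene IDs were matched to symbols for 51948 of 56941 gene rows. The 92 ERCC rows and 2 other control rows (0 reads) stayed out of library sizes. All 8 groups were fitted together with edgeR 4.0.16 (R 4.3.3; TMM scaling, robust quasi-likelihood, low-count filter with a minimum count of 10), which tested 31057 genes on 8 residual degrees of freedom, with Benjamini-Hochberg adjustment and a threshold of 0.05. CPM values use TMM-scaled library sizes. Intronic sums took repeat copies inside 1 gene and outside exons (4929385 copies in all; bedtools 2.31.1) and were fitted likewise with the gene table's library sizes. The fit was tested on simulated data with 200 changed genes.

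The 10 genes and all lists were chosen with earlier results of these data known. From the lists, up to 2 genes past the threshold with the smallest p in each comparison are named, and the 3 genes most like each family's mean pattern. Some genes that this rule picks are not reported here. Alternatives were median-ratio scaling, ERCC scaling (ERCC RNAs are in the table but not in the labels), no filter, DESeq2 1.42.0, a replicate block, a fit of only the 4 libraries compared, and leaving out each library. Leaving out the 6 libraries that stood apart was chosen after seeing the data.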

Additional observations from a re-analysis of the deposited data

Results flagged for a closer look

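The effect of deleting the disordered region differed among the 4 demethylases for 8 of the 10 genes in an edgeR F test on the 4 effects, with Benjamini-Hochberg adjustment over all 31057 genes; 56.6% of all genes passed the same test. Ccn1 differed with an edgeR adjusted p of 3.34e-21, and its log2 fold changes were 1.50 for KDM4A, 1.25 for KDM4B, 0.22 for KDM6A and -0.44 for KDM6B. Fos (edgeR adjusted p = 5.27e-14) had 1.79, 1.39, -0.57 and -0.12 in that sequence, and Jun (edgeR adjusted p = 1.71e-13) had 1.50, 0.49, -0.12 and -0.14. Ier3 (edgeR adjusted p = 5.50e-06) had 0.78, 1.05, -0.75 and -0.34.

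Among the feedback genes, Etv5 (edgeR adjusted p = 1.91e-11) had -0.31, -0.41, 0.28 and -0.05. Etv4 (edgeR adjusted p = 5.59e-09) had 0.06, -0.07, 0.12 and -1.01. Dusp6 (edgeR adjusted p = 0.00119) had -0.20, 0.03, 0.36 and -0.48, and Spry2 (edgeR adjusted p = 0.00126) had -0.25, -0.59, -0.23 and 0.11.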

How the results depend on the processing

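Of 420 log2 fold changes of the 10 genes in the deletion comparisons under alternatives, 369 kept their direction and their side of the threshold. Of 203 counts of called genes under alternatives, full-length and intronic comparisons included, 196 stayed within 1.5 times and 7 moved further. These include full-length comparisons refitted without a deletion library that they do not hold, where little could change. Direction was not counted either. Under ERCC scaling the KDM4A deletion count went from 5 higher and 2 lower to 3 higher and 4 lower. The full-length KDM6B count went from 6 higher and none lower to 4 higher and 5 lower, and both are among the 196. The cause of the values that moved was not tested. The KDM6A deletion count of 4 was 2 in a fit of only those 4 libraries and 2 to 3 with 1 library left out. The KDM6B deletion count of 4 was 8 under ERCC scaling and 2 to 3 with 1 library left out. The full-length KDM6A count of 5 was 2 under ERCC scaling and 3 to 6 with 1 library left out. The KDM4A and KDM4B deletion counts of 7 were 6 to 6 and 6 to 7 with 1 library left out. No filter, DESeq2 and 10 of the 16 fits without 1 library each gave 9 of 10 genes for any difference among the 8 groups.

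Under ERCC scaling 5 effects that had not passed reversed: Spry4 (-0.21) and Etv4 (-0.59, now past the threshold) for KDM4A, Dusp6 for KDM4B (-0.16), Etv4 for KDM6A (-0.091) and Spry2 for KDM6B (-0.27, now past the threshold). Leaving out 1 library turned Dusp6 (-0.024 to 0.086) and Etv4 (-0.14 to 0.010) for KDM4B, Spry4 (-0.43 to 0.12) and Egr1 (-0.62 to 0.27) for KDM6A, and Spry2 (-0.027 to 0.25) for KDM6B. The genes called higher over all genes were 1464 of 19230 under ERCC scaling against 7639 of 15673 for KDM4A, 2876 of 11449 against 5784 of 11240 for KDM4B, 443 of 7583 against 2578 of 5265 for KDM6A, and 661 of 13954 against 3072 of 6407 for KDM6B.

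Deviations of libraries with the same replicate number correlated at 0.103 to 0.172 in each of the 15 pairs of groups without KDM6B and at -0.0026 to 0.0338 in the 13 pairs with KDM6B; the labels do not pair them. With the replicate block, the deletion counts were 7, 7, 5 and 4 for KDM4A, KDM4B, KDM6A and KDM6B, and the intronic KDM4A count was 3 in place of 2. With 2 libraries per group, spread is estimated over all 8 groups, and at 18 to 101 reads Egr1 and Spry4 are limited by depth.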
